A study of Arabidopsis thaliana with 24 samples.

Results

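Ribosome-associated RNA from Arabidopsis thaliana roots was compared directly between the Col0 line that expresses a tagged ribosomal protein from the SCR promoter, which the submitters assign to the endodermis, and the Col0 line that expresses it from the CO2 promoter, assigned to the cortex. The comparison uses 4 libraries of the 24 in the series, 2 from each line, chosen by genotype, promoter and run of library numbers and by no measured value. All plants carried HF-RPL18, ribosomal protein L18 with an affinity tag that an anti-FLAG resin pulls down, and nothing in the labels names another insertion or says that a line is a single clone. Both groups were wild-type Columbia-0, grown upright under long days at 22 °C, with roots taken 6 days after the move to light and material of about 20 plates in each sample. The same pair of lines in the hyl1 mutant (2 libraries each) is set beside them, since those libraries are in neither group of the Col0 contrast, although they enter its filter and its estimate of the spread. The hyl1 allele is not given in the labels. The Col0 line in which the 35S promoter of a plant virus drives the tag broadly (2 libraries) serves as a whole-root reference level.

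Endodermis and cortex are the 2 ground tissue layers of the root and arise from a shared initial cell, whose division depends on the transcription factors SHR and SCR. The endodermis then builds a barrier. A ring of lignin, the Casparian strip, seals the space between neighbouring cells, and older cells are coated with suberin, a polyester of fatty acids and phenolics. The cortex lies just outside and makes neither. HYL1 binds double-stranded RNA and helps DCL1 cut microRNAs from their precursors.

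Depth was 6625137 and 7027091 counts in the SCR libraries and 5416522 and 5479728 in the CO2 libraries, within the series' range of 2868803 to 13575556. The SCR libraries were less alike than those of the 3 other groups compared here. Across the 23219 genes tested, Pearson's r of log2(CPM + 1) was 0.938 between the 2 SCR libraries (CPM, counts relative to library size after TMM scaling), whereas SCR replicate 2 had an r of 0.956 with CO2 replicate 2. The CO2 libraries had an r of 0.949, the hyl1 SCR libraries 0.981 and the hyl1 CO2 libraries 0.969. These correlations are across genes, which are not independent. A set of 10 transcripts, led by AT5G35200 and called dominant here, took 15.4% and 26.7% of the counts in SCR replicates 1 and 2. Its share was 30.4% and 31.5% in the CO2 replicates, against 8.52% and 8.26% in the hyl1 SCR libraries. The set was not the 10 most abundant transcripts of each library. In SCR replicate 1 its member AT3G09630 had 1176 CPM, while AT3G32980 outside the set had 4096. Among the 4 Col0 libraries the share was lowest where the endodermal genes described below were highest, and its part in the results was not tested. A refit without the 10 dominant transcripts called 430 genes in place of 424. Nothing in the labels ties the replicates to separately grown plants, and the spread behind each p-value may therefore be technical.

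SCR replicate 2 stood between SCR replicate 1 and the CO2 libraries. Of the 23219 genes, 329 were higher in the SCR line (1.42% of genes tested) and 95 were lower (0.409%) at an adjusted p under 0.05 (edgeR quasi-likelihood test, Benjamini-Hochberg). Both SCR libraries lay on one side of both CO2 libraries for every called gene, an arrangement seen above CO2 for 22.8% and below it for 22.7% of all genes tested. Over the 329 higher genes the median difference from the CO2 mean, in log2(CPM + 1), was 2.53 in SCR replicate 1 and 1.17 in SCR replicate 2, and 218 of them were more than 2-fold higher in replicate 1 than in replicate 2. Over the 95 lower genes the medians were −1.49 and −1.27, and the 2 SCR replicates were within 1.5-fold of each other for 74 of them.

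The calls rest on a spread estimated over all 24 libraries. With the 4 libraries alone, edgeR called 0 genes, with 2270 at an unadjusted p under 0.05. Leaving out SCR replicate 1 gave 151 calls, leaving out SCR replicate 2 gave 1186, and leaving out CO2 replicate 1 or 2 gave 100 or 193. The genes called in all 4 of those fits were 54 of the higher and 15 of the lower ones.

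The transcript of the SCR gene itself (AT3G54220), a GRAS transcription factor of the endodermis, measured 82.8 and 33.6 normalised CPM in the SCR libraries and 18.6 and 17.8 in the CO2 libraries, and both SCR values lay above. The log2 fold change was 1.68 ± 0.38 (SE, adjusted p = 0.0241). That call was lost without SCR replicate 1 (adjusted p = 0.721) and without either CO2 library. AT1G62500, taken here as the gene of the CO2 promoter although the labels pair no identifier with it, is annotated as a lipid-transfer protein. It was near the detection limit, at 2.58 and 2.40 CPM in the CO2 libraries and 0.888 and 0 CPM in the SCR libraries, and the difference did not pass the test (adjusted p = 0.517). Reads of RPL18 (AT3G05590), which cannot be split into the native gene and the tagged copy, gave 2661 and 1394 CPM in SCR and 1212 and 3534 CPM in CO2, so the groups overlapped.

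**Figure D1:**
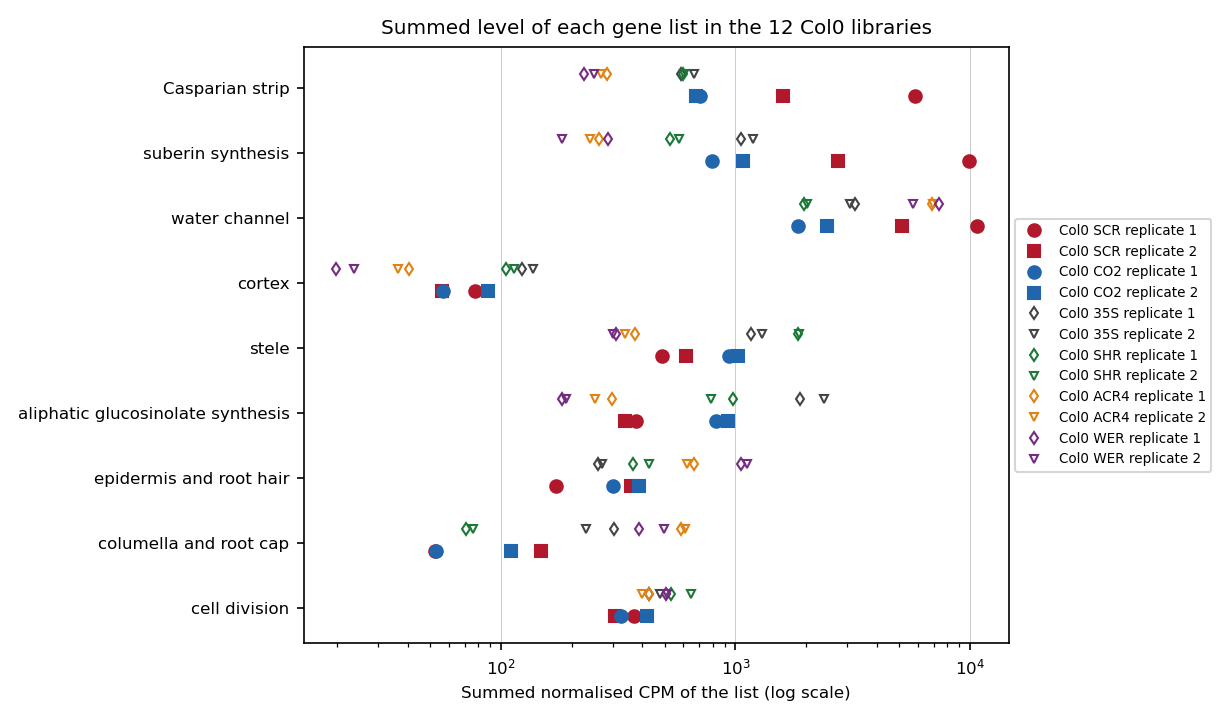
Summed normalised CPM (log scale, x axis) of the members of 9 gene lists (y axis) in each of the 12 Col0 libraries, 1 point a library with colour for the line and shape for the replicate. SCR replicate 1 is far to the right for the Casparian strip (5824) and suberin (9886) lists and SCR replicate 2 lies nearer to the CO2 libraries, while for the glucosinolate list both SCR libraries are below both CO2 libraries.

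The endodermis label of the SCR line was borne out by most genes of the Casparian strip list, although to unlike degrees in the 2 libraries. The 23 genes of the list summed to 5824 and 1590 CPM in the SCR libraries, against 706 and 680 in the CO2 libraries, which is 8.40-fold and 2.29-fold over the CO2 mean. The Col0 35S line had 584 and 667, so the CO2 line sat at the whole-root level for these genes. All 23 were tested. Both SCR libraries were above both CO2 libraries for 18 of them and below for 3, against 22.8% and 22.7% of all genes tested. Of the 23, 15 were called higher in SCR and 1 lower, with a median log2 fold change of 3.21 (−0.0116 over all genes tested). The number higher was 4 without SCR replicate 1, 3 without CO2 replicate 1 and 6 without CO2 replicate 2.

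By role, the list began with its regulator. MYB36, which switches on the Casparian strip programme, had 85.0 and 22.7 CPM in SCR and 14.9 and 11.6 in CO2 (log2 fold change 2.03 ± 0.48, adjusted p = 0.0321). The CASP proteins form the membrane platform on which the strip is laid down. CASP1 (AT2G36100) measured 651 and 143 CPM in SCR and 32.1 and 45.7 in CO2, a log2 fold change of 3.35 ± 0.48 (adjusted p = 0.000981), and its call held with each library left out. An overlapping antisense locus (AT2G36090) could share its reads, and such loci also overlap PER64 and AT2G39430. CASP4 (AT5G06200) had 95.9 and 19.8 against 7.53 and 3.99 CPM and was called (adjusted p = 0.00627), a call lost without SCR replicate 1 or either CO2 library (largest adjusted p = 0.282). CASP2 and CASP5 had fitted log2 fold changes as large, 3.41 ± 1.16 and 3.33 ± 0.86, but did not pass (adjusted p = 0.185 and 0.0569).

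The enzymes that place and polymerise the lignin followed the CASPs. PER64 (AT5G42180), a peroxidase of the strip, measured 460 and 107 CPM in SCR and 26.4 and 32.7 in CO2 (log2 fold change 3.26 ± 0.59, adjusted p = 0.00503), a call that was lost without SCR replicate 1 or either CO2 library (largest adjusted p = 0.153). ESB1, a dirigent protein that positions the lignin, had 345 and 74.2 against 20.4 and 24.2 CPM (log2 fold change 3.23 ± 0.57), and another locus, AT2G28671, carries nearly the same counts. Both genes were several-fold higher in SCR replicate 1 than in replicate 2, and replicate 2 was still above the CO2 libraries. AT2G39430, annotated as dirigent-like, and the peroxidase AT4G11290 had larger fitted log2 fold changes, 3.44 ± 0.63 and 3.67 ± 0.61. The laccase LAC3 had 708 and 236.8 against 132 and 84.7 CPM and the copper protein UCC1 had 199 and 46.9 against 13.1 and 12.8, both higher in SCR.

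GSO1 (AT4G20140), the receptor kinase that senses whether the strip is closed, had 170 and 45.2 CPM in SCR and 23.2 and 32.7 in CO2 (adjusted p = 0.0356). The kinase AT1G61590 had 247 and 49.2 against 29.9 and 20.4 (adjusted p = 0.00687). AT4G34600, which the list holds as CIF2 and the annotation names only as an uncharacterized protein, was the 1 member called lower in SCR. It had 8.14 and 11.9 against 26.8 and 21.2 CPM (log2 fold change −1.26 ± 0.31, adjusted p = 0.0447). Both SCR libraries were also below both CO2 libraries for AT5G50150 and AT2G16385 (listed as LOTR1 and CIF1), which were not called. Their raw counts were 63 and 136 in SCR against 155 and 139 in CO2, and 11 and 14 against 33 and 19. The number of members called lower was 0 without SCR replicate 1 or either CO2 library, with no filter, with the 8 SCR and CO2 libraries and with the replicate block, and 2 with DESeq2. The NADPH oxidase RBOHF (90.3 and 101 against 164 and 98.0 CPM), the exocyst subunit EXO70A1 (49.1 and 40.8 against 31.5 and 39.7) and the tyrosylprotein sulfotransferase TPST (16.9 and 13.3 against 21.0 and 13.2) did not pass the test.

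Every suberin gene of the list lay on the SCR side. The 23 members summed to 9886 and 2723 CPM in SCR and 796 and 1079 in CO2, 10.5-fold and 2.90-fold over the CO2 mean, and the 35S line had 1060 and 1186. In all 23 both SCR libraries were above both CO2 libraries, 18 were called higher and none lower, and the median log2 fold change was 2.43. Without SCR replicate 1 the count was 8, without CO2 replicate 1 it was 6, and without CO2 replicate 2 it was 12.

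The fatty acid hydroxylase CYP86A1 (AT5G58860), which makes the main omega-hydroxy acids of root suberin, measured 1050 and 206 CPM in SCR and 53.7 and 90.04 in CO2 (log2 fold change 3.13 ± 0.50, adjusted p = 0.00196), and lost its call only without CO2 replicate 1 (adjusted p = 0.0802). The acyltransferase GPAT5 (AT3G11430) had 240 and 69.3 against 15.1 and 22.2 (log2 fold change 3.05 ± 0.65, adjusted p = 0.0179), and without any 1 library other than SCR replicate 2 it did not pass (largest adjusted p = 0.429). Both stood several-fold above CO2 in replicate 1 and less so in replicate 2. The feruloyl transferase ASFT (AT5G41040), which adds the phenolic part, had 859 and 345 against 61.6 and 126 (adjusted p = 0.000827). The transporters ABCG2, ABCG6 and ABCG20, which export suberin precursors, had log2 fold changes of 2.23 ± 0.38, 2.41 ± 0.35 and 2.35 ± 0.37. Among the fatty acyl reductases, FAR4 and FAR5 were called and FAR1 (46.9 and 13.5 against 8.32 and 3.79 CPM) was not (adjusted p = 0.332).

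The GDSL lipases AT2G23540 and AT1G74460 of the list and the lipid-transfer protein AT2G48130 kept their calls with each library left out. AT2G23540 had 1521 and 294 against 77.7 and 87.0 CPM (log2 fold change 3.46 ± 0.50), AT1G74460 had 1134 and 248 against 51.1 and 96.2 (3.23 ± 0.47), and AT2G48130 had 881 and 276 against 63.8 and 80.1 (3.01 ± 0.40). Of the 5 MYB transcription factors of suberin, MYB93 passed the test (139 and 30.5 against 14.9 and 10.2 CPM, log2 fold change 2.76 ± 0.49). MYB41, MYB39, MYB53 and MYB92 had fitted log2 fold changes of 2.11, 1.79, 2.83 and 1.83 and did not pass.

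**Figure D2:**
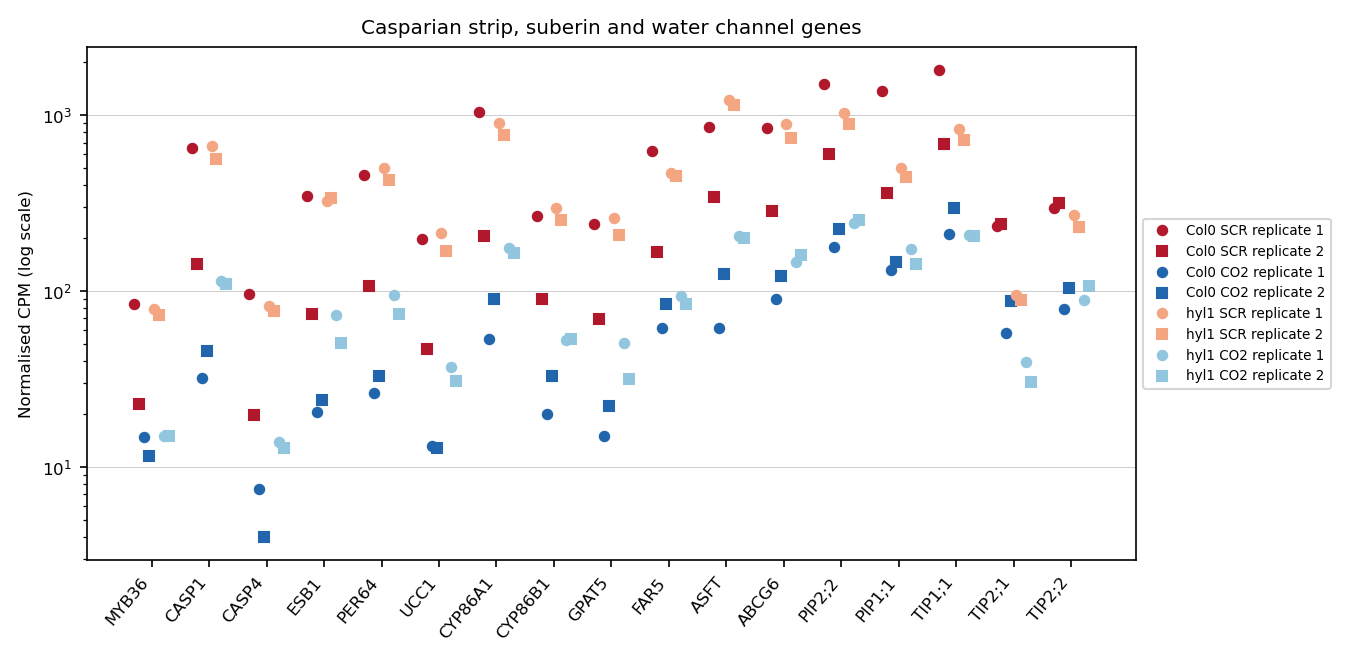
Normalised CPM (log scale, y axis) of 17 genes (x axis: Casparian strip, then suberin, then water channels) in each SCR and CO2 library of Col0 and hyl1, with colour for the group and shape for the replicate. CASP1 reads 651 and 143 in Col0 SCR against 32.1 and 45.7 in Col0 CO2, and TIP2;1 and TIP2;2 are the genes whose 2 Col0 SCR points nearly coincide.

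Aquaporins, the channels that let water and small solutes cross membranes, were another large group on the SCR side. Of 19 listed genes, all tested, 12 were higher in SCR and none was lower, with a median log2 fold change of 1.68. Their sum was 10660 and 5151 CPM in SCR and 1845 and 2450 in CO2, with 3232 and 3088 in the 35S line. The Col0 line with the ACR4 promoter had 6877 and 6937 and that with the WER promoter 7345 and 5738, all above SCR replicate 2. A high level of these genes was therefore not particular to the SCR line. The number called was 6 without CO2 replicate 1 and 10 without CO2 replicate 2 or SCR replicate 1.

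In the plasma membrane, PIP2;2 (AT2G37170) measured 1516 and 606 CPM in SCR and 179 and 225.2 in CO2 (log2 fold change 2.39 ± 0.30, adjusted p = 0.000606), and PIP1;1 (AT3G61430) measured 1377 and 362 against 132 and 147 (2.64 ± 0.40, adjusted p = 0.00138). Both held with each library left out. PIP2;3 (AT2G37180) is a near-identical copy of PIP2;2, so reads may have been split between the 2. In the vacuolar membrane, TIP1;1 (AT2G36830) had 1802 and 684 CPM in SCR and 210 and 298 in CO2 (2.29 ± 0.33, adjusted p = 0.00102). TIP2;1 (234.2 and 241 against 57.7 and 87.4) and TIP2;2 (297 and 317 against 79.3 and 104) had nearly the same level in both SCR libraries, unlike the barrier genes. The members that did not pass were PIP1;4, PIP1;5, PIP2;4, PIP2;5, PIP2;6, PIP2;8 and TIP4;1. PIP1;5 and PIP2;4 were high in SCR replicate 2 alone, at 49.3 and 150 and at 35.1 and 131 CPM.

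Among the 12 largest rises were 4 peroxidases and 2 dirigent-like proteins, and AT4G11290, AT2G39430 and AT2G23540 of the 12 belong to the Casparian strip or suberin lists. The peroxidase AT2G38390 had the largest fitted change among genes with a mean of at least 4 CPM, with 966 and 225.8 CPM in SCR and 33.5 and 44.9 in CO2 (log2 fold change 3.93 ± 0.46, adjusted p = 0.000371), and it held with each library left out. So did the peroxidase AT3G32980 (4096 and 1104 against 152 and 269 CPM), the peroxidase AT2G38380 (2077 and 504 against 88.4 and 146) and the CASP-family membrane protein AT5G44550 (1401 and 278 against 61.6 and 80.9). The others of the 12 were the dirigent-like AT3G24020 and AT2G39430, the peroxidase AT4G11290, the GDSL lipase AT2G23540, the hydroxyproline-rich AT2G22510 and AT5G09480, the glycine-rich AT1G55990 and the uncharacterized AT1G28815. The call was lost in 3 of the 4 leave-one-out fits for AT2G22510, AT5G09480 and AT1G28815, in 2 for AT3G24020, AT4G11290 and AT2G39430, and in 1 for AT1G55990. Below the 4 CPM limit, AT3G29265 had 6.07 and 2.78 CPM in SCR and no count in either CO2 library, which is at least 14.9-fold higher against a floor of 3 counts over the CO2 libraries (counting error only). It is named after its values were seen.

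Families counted by their annotated product, a choice made after values were seen, gave 11 higher of 57 peroxidases, 9 of 21 dirigent-like proteins, 7 of 33 UPF0497 proteins (the CASP family), 6 of 53 hydroxyproline-rich glycoproteins, 5 of 15 ABC-2 transporters and 5 of 44 GDSL lipases, with none lower, against 1.42% higher over all genes tested. Of the other families with at least 5 genes called, alpha/beta-hydrolases had 9 higher of 158, RING/U-box proteins 5 of 214, HXXXD acyl-transferases 5 higher and 1 lower of 46, lipid-transfer proteins 8 higher and 4 lower of 46 and leucine-rich repeat kinases 2 higher and 3 lower of 112. The median log2 fold change was 1.26 over the dirigent-like proteins but 0.116 over the peroxidases and 0.0193 over the hydroxyproline-rich glycoproteins. Some of these genes belong to the Casparian strip and suberin lists.

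A smaller set of SCR-side genes was alike in both SCR libraries, and is named here after its values were seen. MLP328 (AT2G01520), a major latex protein-like gene, had 1866 and 1414 CPM in SCR and 318 and 189 in CO2 (log2 fold change 2.69 ± 0.28, adjusted p = 0.000139). MLP34 (AT1G70850) had 2128 and 1974 against 634 and 578 (1.76 ± 0.23). NSP4 (AT3G16410), a nitrile specifier protein that diverts glucosinolate breakdown to nitriles, had 746 and 658 against 222.9 and 222.6 (1.66 ± 0.19). The methyltransferase AT5G38020 had 254 and 245 against 80.6 and 57.1 (1.86 ± 0.20). In all, 52 of the 329 higher genes had SCR replicates within 1.5-fold of each other.

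**Figure D3:**
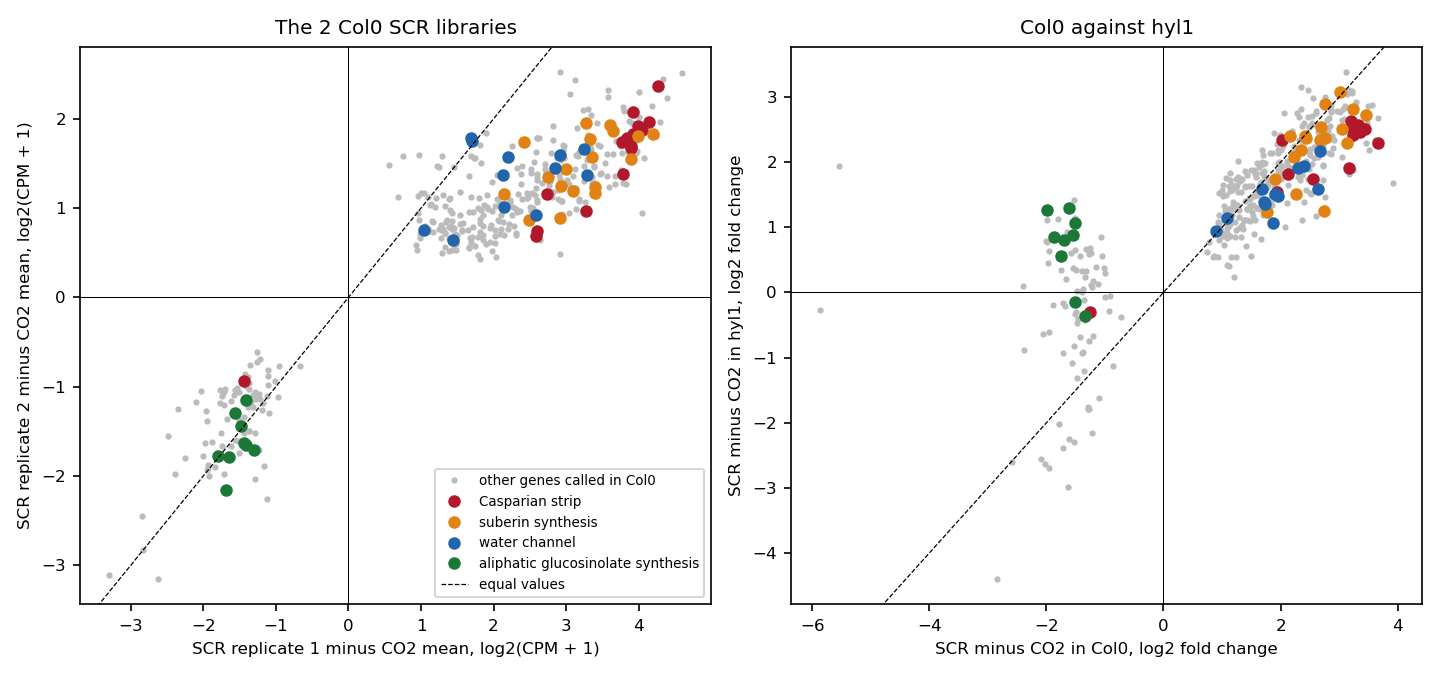
Left: for each gene called in Col0, the difference of SCR replicate 1 (x axis) and SCR replicate 2 (y axis) from the CO2 mean in log2(CPM + 1), where the higher genes lie mostly below the dashed line of equal values (medians 2.53 and 1.17) and the lower genes near it. Right: fitted log2 fold change of SCR over CO2 in Col0 (x axis) and hyl1 (y axis) for the same genes, without AT3G29265 and AT3G49970, which have no count in 1 Col0 line, where all higher genes are above 0 in hyl1 and the lower genes lie on both sides.

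Of the 12 SHR and SCR pathway genes, SCR alone passed. The pathway members JKD (37.0 and 21.8 against 11.7 and 16.4 CPM, adjusted p = 0.245) and SCL3 (35.8 and 15.2 against 12.9 and 9.38, adjusted p = 0.317) lay above CO2 in both libraries without passing, and SHR (13.8 and 22.0 against 11.5 and 15.6) and MGP (18.8 and 16.7 against 15.7 and 17.6) overlapped. Among 7 quiescent centre and stem cell genes, 6 of them tested, PLT1, an AP2-class regulator of the root meristem, was higher in SCR at 35.5 and 17.3 CPM against 4.36 and 8.19 (log2 fold change 2.07 ± 0.50, adjusted p = 0.0380). WOX5, which marks the quiescent centre, had 6.07 and 2.47 against 2.18 and 1.40 CPM and did not pass. GID1C, a gibberellin receptor, was the 1 called of 16 tested gibberellin genes (38.5 and 14.7 against 9.91 and 6.79, adjusted p = 0.0315). The calls for PLT1 and GID1C were lost without SCR replicate 1 or either CO2 library (largest adjusted p 0.579 and 0.841).

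Of 18 tested nutrient transporters, 1 was higher and 1 lower. AMT1;2, an ammonium transporter known from the endodermis and cortex, had 239 and 81.2 CPM in SCR and 26.6 and 60.5 in CO2 (log2 fold change 1.88 ± 0.43, adjusted p = 0.0263), and did not pass without SCR replicate 1 or CO2 replicate 1 (largest adjusted p = 0.794). SULTR2;1, a low-affinity sulfate transporter of vascular tissue, had 3.70 and 5.26 CPM in SCR and 25.8 and 21.6 in CO2 (log2 fold change −2.40 ± 0.36, adjusted p = 0.00121), and held with each library left out. AMT1;1, AMT1;3, the nitrate transporter NRT1.1 and the sulfate transporter SULTR1;2 were high in SCR replicate 2 and low in SCR replicate 1, with 411 against 114 CPM for NRT1.1, and the CO2 libraries lay between.

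SCR replicate 2 differed from replicate 1 in other tissues' genes as well. The 10 genes of the root triterpene clusters summed to 344 CPM in SCR replicate 1 and 1517 in replicate 2, with 874 and 565 in CO2. The 19 epidermis and root hair genes summed to 172 and 357 CPM in SCR and 301 and 388 in CO2. The 9 columella and root cap genes gave 52.3 and 149 against 53.1 and 110. BRN2, a root cap regulator, was at 0.592 CPM in SCR replicate 1 and 15.8 in SCR replicate 2, with 0.991 and 5.39 in the CO2 libraries. With all 24 libraries no gene of these 3 lists was called between the lines by edgeR or DESeq2, with 2, 0 and 0 at an unadjusted p under 0.05. Without SCR replicate 2 the log2 fold change was −1.07 for RHD2 and −0.994 for IRT1 of the epidermis list. It was −1.56 for THAS1 and −1.51 for CYP705A5 of the triterpene list in that fit. The part of such transcripts in the other results was not tested.

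The cortex label of the CO2 line had no such backing in these libraries. The 8 cortex genes of the list summed to 56.5 and 87.7 CPM in the CO2 line, 77.6 and 56.0 in the SCR line and 123 and 137 in the 35S line, so the groups overlapped and both lay under the whole-root level. With all 24 libraries none of the 8 was called by edgeR (2 at an unadjusted p under 0.05) or DESeq2. In edgeR 1 was called higher and 1 lower with the 16 libraries of 1 run of numbers, and 1 higher with the 8 SCR and CO2 libraries. With all libraries the median log2 fold change was −0.39. AT1G62500, AT1G62510, AT1G09750, C/VIF2 and AT5G02000 were all under 6 CPM in each of the 4 libraries, and the transporter AT3G21670 was higher in the SCR libraries (40.6 and 17.0 against 5.94 and 4.59), without passing (adjusted p = 0.200). The auxin importer LAX3 had 19.5 and 25.4 CPM in SCR and 33.3 and 65.3 in CO2 (adjusted p = 0.338). The line is therefore called the CO2 line here, by its promoter.

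The genes higher in the CO2 line were a smaller set of 95, with a median log2 fold change of −1.51. Their SCR libraries were mostly alike, but the CO2 libraries were within 1.5-fold of each other for 65 of them. By mean CPM, CO2 was the highest of the 6 Col0 lines for 25 of the 95, while SCR was for 264 of the 329 higher genes. The Col0 line with the SHR promoter was above CO2 for 37 of the 95. Among the 12 largest falls, 3 were near zero in SCR. AT3G49970, of the NPH3 family, had no count in either SCR library and 15.9 and 1.997 CPM in CO2, at least 39.4-fold lower against a floor of 3 counts over the SCR libraries (counting error only). AT1G42718 had 0.148 and 0.309 CPM in SCR and 24.6 and 3.99 in CO2, and the F-box gene AT4G38870 had 0.444 and 0 in SCR and 19.8 and 2.80 in CO2. In all 3 genes CO2 replicate 1 held most of the signal, and the calls were lost without it and without either SCR library. AT1G79245, GGT1 (a gamma-glutamyl transpeptidase), ATPMEPCRB (a pectin methylesterase), AT2G12490 and G3Pp2 (a glycerol-3-phosphate permease) had log2 fold changes of −2.84, −2.58, −2.39, −2.10 and −2.07. Each lost its call in at least 2 of the 4 leave-one-out fits. Of the rest, AT1G73600, a methyltransferase, was the most even, with 17.6 and 17.8 CPM in SCR and 70.7 and 70.9 in CO2 (−1.999 ± 0.25, adjusted p = 0.000606). AT1G73602 carries nearly the same counts, so that 1 set of reads may stand behind both.

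Of the genes lower in SCR, PWD was named by rule, and SEX1 and DPE2, which also act in starch breakdown, were picked after values were seen, with no count over other starch genes. PWD (AT5G26570), which adds phosphate to starch before it is degraded, had 11.3 and 10.7 CPM in SCR and 58.1 and 31.3 in CO2 (log2 fold change −2.03 ± 0.38, adjusted p = 0.00719), a call lost without SCR replicate 1 or CO2 replicate 1 (largest adjusted p = 0.192). SEX1, the other glucan dikinase, had 28.1 and 25.5 against 98.1 and 55.9 (−1.52 ± 0.38, adjusted p = 0.0433). DPE2, which uses the maltose released, had 30.2 and 35.4 against 153 and 99.8 (−1.95 ± 0.41, adjusted p = 0.0149). SCR libraries were alike and CO2 replicate 1 was above CO2 replicate 2 in all 3, and SEX1 and DPE2 also lost their calls in at least 1 leave-one-out fit.

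Stele genes tended to the CO2 side and few passed. The 26 stele genes summed to 485 and 615 CPM in SCR and 940 and 1027 in CO2, with 1166 and 1298 in the 35S line and 1839 and 1872 in the line with the stele promoter SHR, so the CO2 line did not exceed the whole-root level. Both SCR libraries were below both CO2 libraries for 17 of the 26, against 22.7% of all genes tested, and 2 were called lower (8 by DESeq2), with a median log2 fold change of −0.838. PHO1 (AT3G23430), which loads phosphate into the xylem, had 72.4 and 121 CPM in SCR and 286 and 217 in CO2 (−1.38 ± 0.30, adjusted p = 0.0220). NRT1.5 (AT1G32450), which loads nitrate into the xylem, had 66.9 and 75.6 against 159 and 185 (−1.27 ± 0.22, adjusted p = 0.00340). The groups were apart in both genes. PHO1 was not called without SCR replicate 1 or either CO2 library (largest adjusted p = 0.436), and NRT1.5, which an antisense locus overlaps, was not called without SCR replicate 1 (adjusted p = 0.0624). In bulk samples like these, fewer cells of a type and less RNA per cell cannot be told apart.

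A biosynthetic pathway on the CO2 side was the synthesis of aliphatic glucosinolates, the methionine-derived sulfur compounds that deter herbivores. The 16 genes of the list, 15 of them tested, summed to 375 and 338 CPM in SCR and 829 and 932 in CO2. The SCR sums were 0.426-fold and 0.384-fold of the CO2 mean, and the 35S line had 1887 and 2380. The Col0 line with the SHR promoter had 973.9 and 784.5, so the level in CO2 was not particular to that line. The sums were 298.5 and 252.3 in the Col0 ACR4 line and 182.3 and 189.7 in the Col0 WER line. In SCR, 9 were lower and none higher, 14 of 15 had both SCR libraries below both CO2 libraries, and the median log2 fold change was −1.51. The count was 6 without SCR replicate 1 or either CO2 library, and 5 of the genes were called in all 4 leave-one-out fits.

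Along the pathway, MYB28, its main transcription factor, had 13.0 and 15.8 CPM in SCR and 33.1 and 39.5 in CO2 (adjusted p = 0.0141). BCAT4 (AT3G19710), the aminotransferase of the first step, had 18.8 and 13.3 against 50.7 and 77.3 (log2 fold change −1.99 ± 0.32, adjusted p = 0.00196). In the chain elongation cycle, MAM1 (7.11 and 5.10 against 13.9 and 25.8), MAM3 (AT5G23020, 38.2 and 39.4 against 92.1 and 129) and IMD1 (83.6 and 73.0 against 228.7 and 227.8) were lower, and the isomerase subunit IPMI2 did not pass (adjusted p = 0.0701). MAM1 was not called without CO2 replicate 2 (adjusted p = 0.159). The core P450 enzymes CYP79F2 (AT1G16400, 15.4 and 15.6 against 50.5 and 62.3, log2 fold change −1.86 ± 0.31) and CYP83A1 (AT4G13770, 30.2 and 27.2 against 102 and 90.6, −1.75 ± 0.24) held with each library left out. CYP79F2 and CYP79F1 are close copies that may share reads. BAT5, the plastid transporter of the keto acids, was lower (adjusted p = 0.0156), as was the sulfotransferase SOT18 (adjusted p = 0.0207), although SOT18 lost its call in each of the 4 leave-one-out fits (largest adjusted p = 0.156). SUR1 (94.0 and 75.2 against 92.9 and 91.8) and SOT17 (20.3 and 14.5 against 21.4 and 21.0), which act late in the pathway, did not pass. Antisense loci overlap BCAT4 and IMD1, and AT1G74088 overlaps SOT18 on the same strand, and these could share reads.

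**Figure D4:**
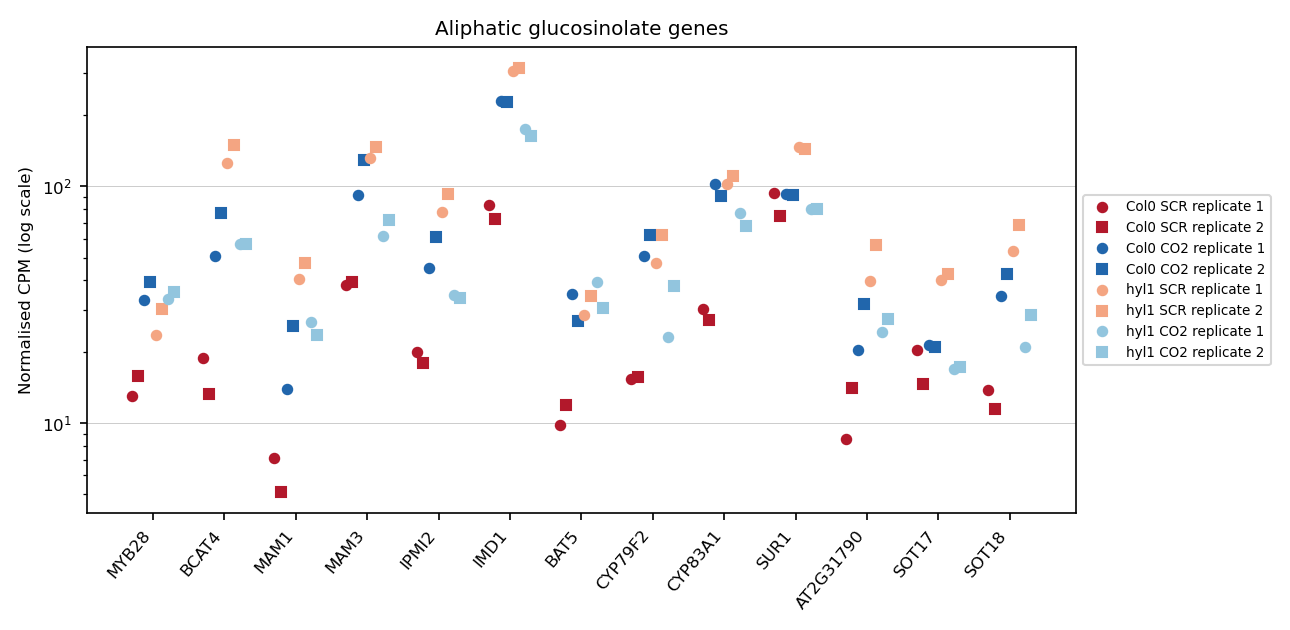
Normalised CPM (log scale, y axis) of 13 aliphatic glucosinolate genes (x axis, in pathway order) in each SCR and CO2 library of Col0 and hyl1, with colour for the group and shape for the replicate. In BCAT4 the 2 Col0 SCR libraries (18.8 and 13.3) are the lowest of the 8 and the 2 hyl1 SCR libraries (125 and 149) the highest.

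Median log2 fold changes were −0.182 over the 20 cell division genes, −0.0706 over the 16 auxin genes and −0.435 over the 19 epidermis genes. They were 0.426 over the 10 triterpene genes and 0.0463 over the 9 root cap genes. With all 24 libraries none of these genes was called in Col0 by edgeR or DESeq2. At an unadjusted p under 0.05 there were 2 auxin genes, 2 triterpene genes and 0 of the others.

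The hyl1 libraries gave the same pair of lines once more. There 1507 genes were higher in SCR (6.49%) and 1441 lower (6.21%), more than in Col0. Of the 329 genes higher in Col0, all had a positive log2 fold change in hyl1 and 305 were called higher (92.7% of the Col0 list, 20.2% of the hyl1 list), with a median of 1.84. None of the 329 had a called difference between the genotypes in edgeR (9 at an unadjusted p under 0.05), where 153 of 23219 genes were called (0.659%), 43 positive and 110 negative. Casparian strip genes summed to 4.35-fold and 3.85-fold of the hyl1 CO2 mean in the hyl1 SCR libraries, and suberin genes to 5.59-fold and 4.88-fold, both between the values of the 2 Col0 SCR libraries. Of these lists 15 and 17 genes were higher in hyl1, and 12 of the water channels. CASP1 had 667 and 563 CPM in hyl1 SCR, against 651 in Col0 SCR replicate 1, and 115 and 110 in hyl1 CO2.

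The genes lower in SCR carried over much less. Of the 95, 47 were negative in hyl1, 22 were called lower (23.2% of the Col0 list, 1.53% of the hyl1 list) and 11 were called higher, with a median of 0.00982. The difference between genotypes was called for 30 of the 95, all of them in the positive direction (0.185% of all genes tested), meaning a higher SCR to CO2 ratio in hyl1. The 95 were chosen as negative in Col0, and the difference subtracts that same Col0 value, so the choice itself favours a positive sign. The glucosinolate list held 9 genes with a called difference, all positive, and 7 that were higher in SCR in hyl1. BCAT4 had 125 and 149 CPM in hyl1 SCR and 57.0 and 57.0 in hyl1 CO2 (log2 fold change 1.26, adjusted p = 0.00988), so that its difference between genotypes was 3.26 ± 0.44 (adjusted p = 0.00259). The 2 hyl1 CO2 values lay within the Col0 CO2 values of 50.7 and 77.3, and the hyl1 SCR values were far above the Col0 SCR values of 18.8 and 13.3. MYB28 was an exception, with 23.6 and 30.2 CPM in hyl1 SCR and 33.6 and 35.9 in hyl1 CO2, and no called difference (adjusted p = 0.604). Of the stele genes, 2 had a called difference, the phloem protein gene SEOR1 (2.94, adjusted p = 0.0433) and the xylem protease gene XCP1 (2.08, adjusted p = 0.0159).

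The 95 genes were divided by their level in the Col0 35S line, whose libraries are in neither group of the contrast but enter the filter and the estimate of the spread behind its calls. In 35 genes the 35S mean was below the CO2 mean. Of these, 30 were negative in hyl1, 21 were called lower and none higher there, 3 had a called difference between genotypes, and the hyl1 median was −1.13. In the other 60 genes the 35S mean was at or above the CO2 mean. Of those, 17 were negative in hyl1, 1 was called lower and 11 higher, 27 had a called difference, and the median was 0.342. The split used the Col0 CO2 mean, so it is not independent of the Col0 contrast, and the contrast between both sets was not tested. The first set held the starch genes PWD, DPE2 and SEX1, and also XRN4, a cytoplasmic exoribonuclease (79.1 and 90.5 CPM in Col0 SCR against 159 and 150 in Col0 CO2, and 64.9 and 51.7 against 137 and 118 in hyl1), and POK2, a kinesin of the division plane (32.1 and 41.1 against 78.5 and 91.4, and 30.8 and 29.3 against 146 and 121). The second held all 9 called glucosinolate genes and the cell wall genes EXPB3 (46.2 and 45.2 against 139 and 137 CPM in Col0, 189 and 251 against 96.7 and 85.2 in hyl1) and XTH20. Both sets had like medians in Col0, −1.59 and −1.48.

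**Figure D5:**
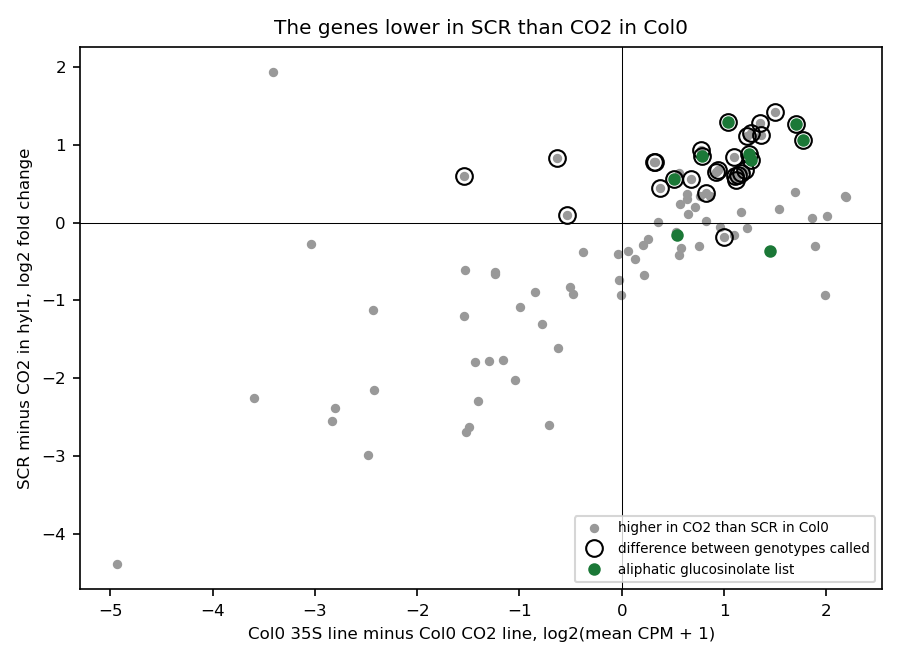
The 95 genes lower in SCR than CO2 in Col0, without AT3G49970, which has no count in the Col0 SCR line. The x axis is the log2 ratio of mean CPM + 1 of the Col0 35S line to the Col0 CO2 line. The y axis is the fitted log2 fold change of SCR over CO2 in hyl1. Most of the genes left of 0 are below 0 in hyl1, and the 27 genes right of 0 with a called difference between genotypes (ringed), most of the glucosinolate genes (green) among them, are above it in all but 1 gene.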

How the data were processed

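RNA from anti-FLAG pull-downs of HF-RPL18 ribosomes was sequenced on an Illumina MiSeq, per the labels' protocols. The authors deposited 1 table of raw counts for 33602 genes and 24 libraries, made with featureCounts from Subread on TAIR10, and the submitters' processing notes also name CASAVA 1.8.2, TopHat2 2.0.11 and Bowtie2 2.2.1.0. Whether counting was stranded, and how multi-mapped reads were handled, is not given in the sources used, and near-identical, overlapping or antisense genes could therefore share counts. Gene names came from a RefSeq table of TAIR10.1 that held 32835 of the identifiers (97.72%). Overlapping and antisense loci were found from gene positions and strands in the TAIR10.1 annotation, although the counts were made on TAIR10.

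The deposited counts went unchanged into edgeR 4.0.16 (R 4.3.3), with the quasi-likelihood F test, TMM scaling and 1 mean for each of 12 groups. Genes were kept with filterByExpr (minimum count 10, minimum total 15), which left 23219, and all 24 libraries shared the estimate of the spread (common dispersion 0.126). Contrasts were SCR minus CO2 in Col0, the same in hyl1, and the difference of the 2. P-values were adjusted by Benjamini-Hochberg across every tested gene, and genes were called under 0.05. Normalised CPM used the TMM-scaled library size, and lists are described by counts, medians and summed CPM, with no set test. The fit was tested on simulated data.

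The members and the gene lists were chosen with earlier results of these data known. The rule for named genes took the SCR, CO2 and RPL18 genes, the 12 largest rises and 12 largest falls among called genes with a mean of at least 4 CPM and groups that did not overlap, up to 5 called members of each list with the largest change (or the 2 with the highest CPM where none was called), and the 5 smallest p of the difference between genotypes. Other list members were named for their role after values were seen. Alternatives were DESeq2 1.42.0, other size factors, no filter, other sets of libraries, a replicate block, removal of the 10 dominant transcripts and each library left out.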

Additional observations from a re-analysis of the deposited data

Results flagged for a closer look

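Among the genes named by rule, 11 had an SCR to CO2 difference that was not the same in hyl1 as in Col0, by the test of the difference itself (edgeR, adjusted p under 0.05). Over all genes tested 153 passed, 43 with a positive and 110 with a negative difference, so the 11 do not stand for the whole. All 11 were lower in SCR in Col0, and the log2 difference, hyl1 minus Col0, was positive in each. Since the Col0 value is subtracted, a positive sign is favoured in genes that are lower in SCR in Col0. Among the aliphatic glucosinolate genes it was 3.26 for BCAT4, 2.90 for SOT18, 2.71 for CYP79F2, 2.57 for IMS2 (AT5G23020, named MAM3 above), 2.50 for MAM1, 2.42 for IMD1 and 2.30 for CYP83A1. It was 2.87 for EXPB3, an expansin, 2.49 for SULTR2;1, 2.78 for the methyltransferase AT1G73600 and 2.76 for AT1G73602, which carries nearly the same counts as AT1G73600. EXPB3 had 355 CPM on average in the Col0 35S line, more than in any of the 8 SCR and CO2 libraries. In SULTR2;1 the 2 hyl1 lines were level, with 46.0 and 62.5 CPM in SCR and 57.7 and 44.0 in CO2, all above the Col0 values.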

How the results depend on the processing

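The count of genes called in Col0 (424) was 419 with RLE size factors, 403 with no filter, 455 with the 8 SCR and CO2 libraries and 430 without the 10 dominant transcripts. It was 842 with DESeq2 (66.4% higher, against 77.6%), 1542 with the 16 libraries of 1 run of numbers (67.8% higher) and 0 with the 4 libraries alone. Leaving out 1 library gave 100 to 1186. The hyl1 count (2948) became 6431 with 16 libraries, 8453 with its 4 libraries alone and 960 to 1125 with 1 library left out. The count of differences between genotypes (153) became 347 with DESeq2, 498 with 16 libraries, 89 with 8 libraries and 17 to 313 with 1 library left out. The causes were not tested, and the counts rose in some of the fits with fewer samples and fell in others. Fits with fewer samples have fewer residual degrees of freedom, and a lone sample is assumed to vary like the other groups. With the replicate number as a block, 385 genes were called in Col0, 2795 in hyl1 and 153 for the difference. The numbers are not taken to pair the samples, since same-numbered libraries had correlations of deviations of 0.0621 (Col0) and 0.0371 (hyl1) over 16212 genes.

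With 1 Col0 library left out, the direction reversed in 10 of the genes followed, none of them called in Col0 with all libraries. The log2 fold change ran for RPL18 (AT3G05590) from −0.79 to 0.749, for RHD2 (AT5G51060) from −1.07 to 0.0199, for IRT1 (AT4G19690) from −0.994 to 0.549, for CEL5 (AT1G22880) from −0.703 to 1.39, and for PIN3 (AT1G70940) from −0.963 to 0.0459. It ran for RNR1 (AT2G21790) from −0.52 to 0.504, for THAS1 (AT5G48010) from −1.56 to 0.894, for CYP705A5 (AT5G47990) from −1.51 to 1.28, for ABCB19 (AT3G28860) from −0.20 to 0.391, and for AXR3 (AT1G04250) from −0.432 to 0.627. THAS1 and CYP705A5 passed the test as lower in SCR without SCR replicate 2 (adjusted p = 0.0129 and 0.00156). The causes were not tested. Genes at a few counts in 1 line are limited by depth.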
